A study of Saccharomyces cerevisiae with 12 samples.

Results

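The mitochondrial genome of budding yeast is a small DNA separate from the nuclear chromosomes, and its transcripts other than tRNAs are the 30 of 6825 ids in the expression table whose systematic name starts with Q0. They are members by name alone. They comprise 7 ids for subunits of the respiratory chain and ATP synthase (COX1, COX2, COX3, COB, ATP6, ATP8 and OLI1), the ribosomal protein VAR1, the 15S and 21S rRNAs, the RNase P RNA RPM1, 10 ids encoded wholly or in part by introns, and 9 other open reading frames. In the R64 RefSeq annotation 22 of the 30 ids were found, all on the plus strand, and the other 8 (Q0010, Q0017, Q0032, Q0092, Q0142, Q0143, Q0144 and Q0182) are named here without a position.

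The study followed Euc1 (YMR111C), a nuclear protein that resembles transcription factors and binds at sites of chromatin ubiquitylation, and sequenced polyA-selected RNA from cells without it and from cells with an excess of it. Each of 4 groups had 3 samples, which the submitters call biological replicates. The p-values rest on the spread between the samples of a group, moderated in the fit by the spread of the other ids. The euc1∆ cells (DF5a, YIplac211-MED11::URA3, ymr111c::natNT2) and their WT (DF5a, YIplac211-MED11::URA3) were in mid-log growth in glucose medium. MED11, which neighbours EUC1 in the R64 annotation, was thus present in an added copy in both strains. The pGAL-EUC1 cells (strain W303a RAD5 with the plasmid YIplac211-pGAL-EUC1::URA3 and ymr111c::natNT2) and their control (W303a RAD5 with YIplac211-pEUC1-EUC1::URA3, likewise ymr111c::natNT2) were grown in raffinose medium and then given 2% galactose for 3 h. Both strains of this experiment lacked the EUC1 gene at its own place, and the plasmid was, by the paper, integrated at the URA3 locus. The integrated copy was driven by the galactose-inducible GAL promoter in one and by the promoter of EUC1 itself in the other. The glucose and the galactose samples differed in strain, medium and experiment at once, which cannot be told apart, and only groups of the same experiment were tested against each other.

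As background, the mitochondrial genome is transcribed by a phage-type RNA polymerase, Rpo41, with its initiation factor Mtf1, from short promoters into long RNAs. These are cut by RNase P and other nucleases at tRNAs and at a conserved dodecamer downstream of each message. In this yeast the mature messages and rRNAs have no stable poly(A) tail, unlike nuclear messages. Expression of the mitochondrial genome is repressed by glucose and rises on other carbon sources. What a polyA-selected library retains of these RNAs is therefore a remainder, and its level is not a measure of how much of the RNA a cell holds.

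The promoters show how the RNAs are laid out. The conserved nonamer ATATAAGTA occurred 11 times on the plus strand and 3 times on the minus strand of the 85779 bases of the mitochondrial genome in RefSeq R64. The sites below are those nearest before the annotated starts of the rRNAs, COX1 and OLI1, shown because these are the RNAs the results turn on, with a more distal site of OLI1 and the site before COB, a gene of low level, for comparison. All lie on the plus strand and read 5′ to 3′, with the nonamer in capitals, at chrM:6454-6478 (15S), chrM:57992-58016 (21S), chrM:13341-13365 (COX1), chrM:34870-34894 (COB), chrM:46063-46087 (OLI1, distal) and chrM:46141-46165 (OLI1, proximal).
15S_RRNA: ttattattATATAAGTAataaataa
21S_RRNA: tattatatATATAAGTAgtaaaaag
COX1: aagtattgATATAAGTAatagatat
COB: gaaatattATATAAGTAatatataa
OLI1 distal: taatattaATATAAGTAatatatat
OLI1 proximal: acacatttATATAAGTAtatatata
The nonamer lay directly before the first base of the 21S rRNA, 75 bases before that of the 15S rRNA, 460 before the first codon of COX1, 565 before that of OLI1 and 1653 before that of COB. A nonamer on the sense strand fell within 1000 bases before 5 of the 14 distinct member starts (35.7%), against 11.4% of 1000-base windows along the mitochondrial genome and 93 of 5996 nuclear genes (1.6%). On either strand the count was again 5 of 14, against 15% of the windows and 2.9% of the nuclear genes. A match is a description of the letters and no measure of use of the site.

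Values are TPM, in which reads are divided by the length of the id and scaled to a common total. The totals listed ran between 973736 and 993435 TPM per sample. Since TPM does not hold the number of reads, the depth of the samples is unknown, and a value of 0 is reported only as listed at 0. EUC1 was listed at 0, 0 and 0.09 TPM in euc1∆ cells, against 9.56, 15.96 and 13.02 TPM in WT cells, and at 1985, 1942 and 2035 TPM in pGAL-EUC1 cells, against 50.6, 30.8 and 31.6 TPM in control cells. The summed level of 4 a-cell genes was 925 to 1583 TPM and that of 3 alpha-cell genes 10.7 to 31.0 TPM in the 12 samples, all of which are labelled as a cells.

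The members were a minute part of every library. In such bulk RNA, fewer cells with a transcript and less of it per cell cannot be told apart. They summed to 25.0, 29.4 and 23.8 TPM in the 3 euc1∆ samples, against 24.3, 49.4 and 18.2 TPM in the 3 WT samples. In the galactose experiment they summed to 395, 424 and 307 TPM in pGAL-EUC1 samples, against 282, 227 and 327 TPM in control samples. The groups overlapped in both experiments, with WT sample 2 the highest of the glucose samples and pGAL-EUC1 sample 3 below control sample 3. Of the 360 values, 133 were listed at 0. A mean of at least 1 TPM was reached by 8 of the 30 members in euc1∆ cells, 8 in WT cells, 16 in pGAL-EUC1 cells and 16 in control cells, and Q0017 and Q0032 were listed at 0 throughout. Mitochondrial tRNAs (23 ids) and nuclear tRNAs (262 ids) were listed at 0 in all 12 samples.

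**Figure D1:**
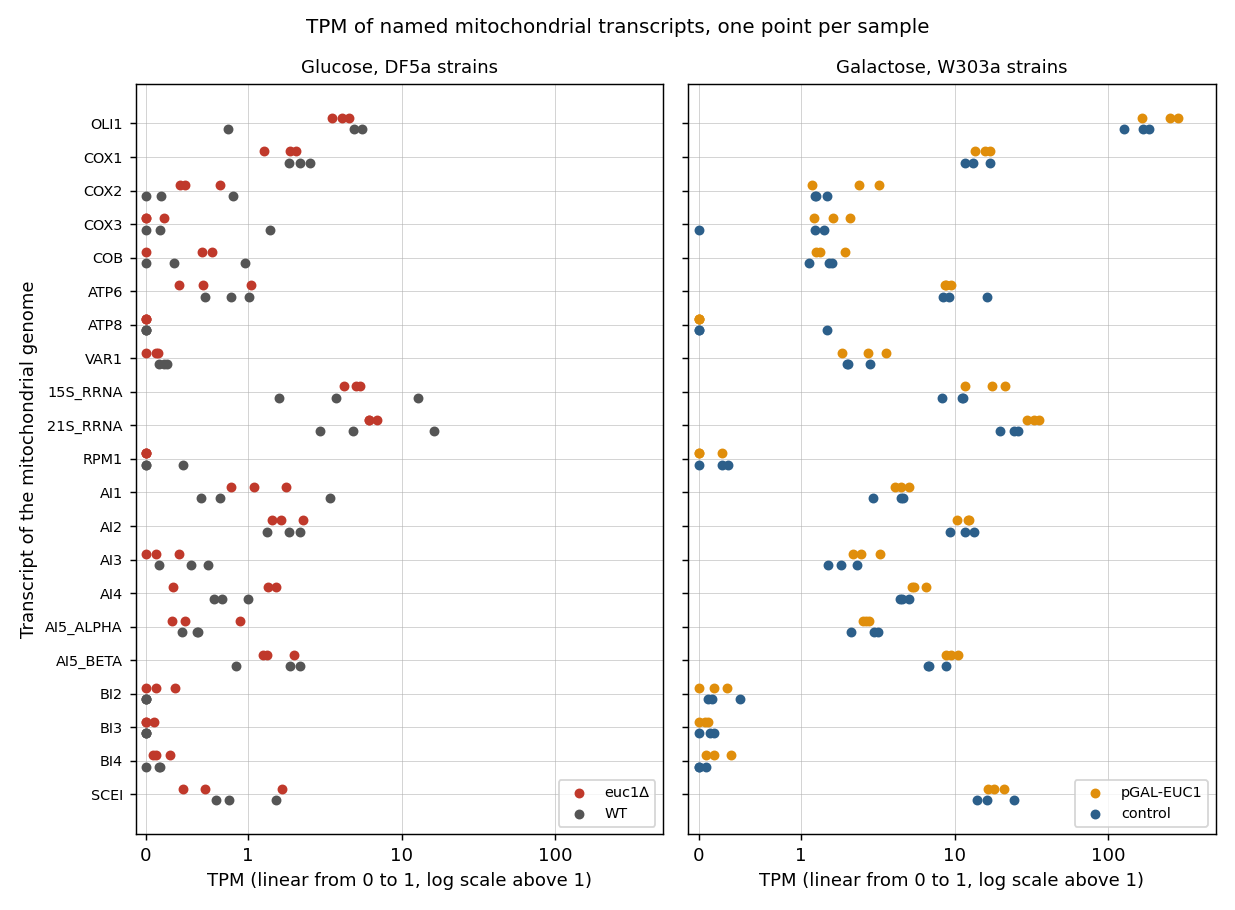
TPM of 21 mitochondrial transcripts (rows) in each sample (points), on an axis that is linear from 0 to 1 and logarithmic above. Left, euc1∆ and WT cells in glucose; right, pGAL-EUC1 and control cells in galactose, where OLI1 stood apart at 126 to 287 TPM, whereas no glucose sample passed 5.49 TPM.

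OLI1 (Q0130), which encodes the subunit of the membrane ring of ATP synthase, was the member with the highest level in galactose and was low in glucose. It was listed at 3.50, 4.11 and 4.51 TPM in euc1∆ cells, against 5.49, 4.86 and 0.80 TPM in WT cells. It was listed at 253, 287 and 167 TPM in pGAL-EUC1 cells, against 169, 126 and 185 TPM in control cells. The groups of the same experiment overlapped each time, whereas the experiments were far apart. Ranked among all 6825 ids, OLI1 stood between places 5586 and 6244 in the glucose samples and between places 580 and 1313 in the galactose samples. Its share of the summed TPM of the members was 14.0, 14.0 and 18.9% in euc1∆ samples and 22.6, 9.8 and 4.4% in WT samples. It was 64.0, 67.6 and 54.4% in pGAL-EUC1 samples and 59.8, 55.6 and 56.7% in control samples. OLI1 has 231 bases and the spliced 21S rRNA 3296, and TPM divides by length, so these are not shares of reads.

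The rRNAs took the place of OLI1 as the largest class in glucose. The 15S and 21S rRNAs, the RNAs of the small and the large mitochondrial ribosomal subunit, made up 41.4, 41.7 and 46.8% of the members' sum in euc1∆ samples and 35.3, 58.4 and 24.8% in WT samples. In WT sample 3 the ids of COX1 were the larger class at 43.9%. In galactose the rRNAs made up 13.5, 9.7 and 17.6% in pGAL-EUC1 samples and 12.6, 12.4 and 11.3% in control samples. The ratio of 21S to 15S rRNA was 1.21 to 1.86 in glucose and 1.52 to 2.53 in galactose.

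**Figure D2:**
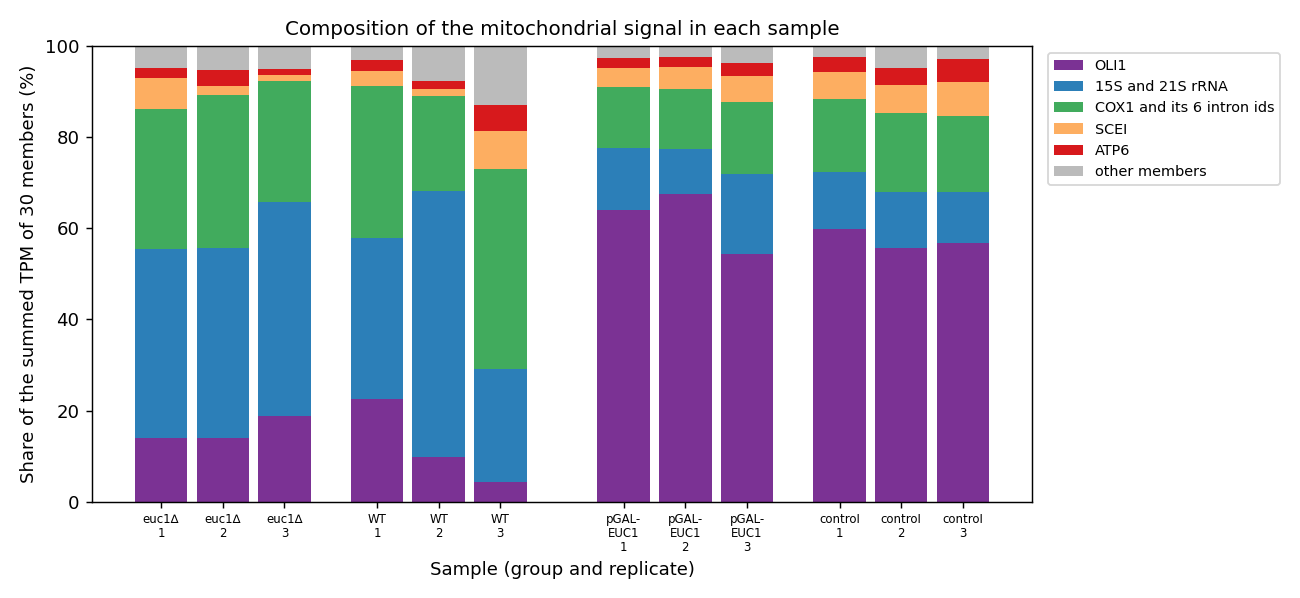
Share of the summed TPM of the 30 members (%, stacked bars) taken by OLI1, the rRNAs, COX1 with its 6 intron ids, SCEI, ATP6 and the other members, for each of the 12 samples. OLI1 made up 4.4 to 22.6% in glucose and 54.4 to 67.6% in galactose.

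COX1 (Q0045), the core subunit of cytochrome c oxidase, runs over 8 exons between positions 13818 and 26701 of the mitochondrial genome, and 6 further ids are built from its exons and introns. AI1 and AI2 encode reverse transcriptase and maturase proteins of group II introns. AI3, AI4 and AI5_ALPHA belong to group I introns, and AI3 and AI4 are among the ids that encode DNA endonucleases. COX1 was listed at 1.86, 1.26 and 2.04 TPM in euc1∆ cells, against 1.85, 2.51 and 2.18 TPM in WT cells, and at 15.9, 17.1 and 13.7 TPM in pGAL-EUC1 cells, against 13.1, 11.7 and 17.0 TPM in control cells. The 2 groups of each experiment overlapped. The intron ids summed to 2.27 to 2.51 times the level of COX1 in pGAL-EUC1 samples and to 2.18 to 2.45 times in control samples, and the ratio was wider in glucose, at 2.09 to 6.82 in euc1∆ samples and 2.67 to 3.36 in WT samples.

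Most of these ids cannot be fully separated by their reads alone. Of the windows of 75 bases, the length of the reads, 898 of the 1531 in spliced COX1 (58.7%) also occur in an intron id. The share of windows found in another member was 63.1% for COB, 49.4% for AI5_ALPHA, 40.6% for AI4, 37.1% for BI4, 29.6% for BI2, 29.2% for BI3, 14.4% for AI3, 5.3% for AI2 and 3.9% for AI1. RSEM divides such reads between ids by estimation, so the split between COX1 and its introns is an estimate. AI5_BETA, OLI1, ATP6, SCEI and both rRNAs shared no window with another member. A stretch of 230 bases of BI4 also occurs on chromosome IX (7015 to 7244) and chromosome X (6998 to 7227) of the nuclear genome.

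The longest runs of A are shown for the members that had the longest, the 21S rRNA and AI5_BETA, and for OLI1, which had the highest level in galactose, since polyA selection is done on oligo(dT). They lie on the plus strand at chrM:60338-60367 (21S), chrM:24592-24621 (AI5_BETA) and chrM:46734-46756 (OLI1), with the run in capitals.
21S_RRNA: attattgaatAAAAAAAAAAtaatatatat
AI5_BETA: gaaatattatAAAAAAAAAAgaacaagaag
OLI1: attagcagctAAAtatattggag
The runs were 10, 10 and 3 bases long, so OLI1 had the shortest of these. Across the 22 annotated members, which share libraries and an A-rich genome, the Spearman correlation of the longest run with the mean TPM was 0.02 in glucose and 0.00 in galactose. With the AT content it was -0.47 in glucose and -0.34 in galactose, and with the spliced length 0.32 and 0.12.

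ATP6 and SCEI stood far below OLI1 in galactose. ATP6 (Q0085), the channel subunit of ATP synthase, was listed at 0.56, 1.05 and 0.32 TPM in euc1∆ cells, against 0.58, 0.83 and 1.02 TPM in WT cells, and at 8.63, 9.53 and 8.75 TPM in pGAL-EUC1 cells, against 9.20, 8.35 and 16.3 TPM in control cells. ATP8, which is made from the same message as ATP6, was above 0 in a single sample, control sample 2 with 1.47 TPM. SCEI (Q0160), the homing endonuclease in the intron of the 21S rRNA, was at 0.36 to 1.66 TPM in euc1∆ cells and 0.69 to 1.51 TPM in WT cells, and at 16.5 to 20.96 TPM in pGAL-EUC1 cells and 14.0 to 24.5 TPM in control cells. SCEI therefore stood at 0.04 to 0.51 of the level of the 21S rRNA in glucose and at 0.46 to 0.95 in galactose.

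The remaining subunits were close to the limit of the table. COX2 and COX3, the other core subunits of cytochrome c oxidase, did not pass 1.38 TPM in glucose or 3.22 TPM in galactose. COB, the cytochrome b of complex III, stayed at 0 to 0.97 TPM in glucose and 1.12 to 1.94 TPM in galactose, and VAR1 at 0 to 0.21 TPM in glucose and 1.85 to 3.58 TPM in galactose. BI2, BI3 and BI4 of the COB introns did not pass 0.40 TPM, RPM1 did not pass 0.36 TPM and Q0255 did not pass 0.52 TPM in any sample. Among the 8 ids without a RefSeq position the highest value was 3.24 TPM, for Q0092 in control sample 2.

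Set side by side with no test, 13 of the 30 members (43.3%) had all 6 galactose samples above all 6 glucose samples, among them OLI1, COX1, ATP6, VAR1, SCEI and the 21S rRNA, but not the 15S rRNA, and none had them all below. Over all 6825 ids these shares were 49.6 and 7.9%. The median TPM of the ids listed above 0 was 41.4 to 44.6 in galactose and 27.3 to 30.8 in glucose.

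In the comparison of euc1∆ with WT cells, which asks what is lost with EUC1, no mitochondrial transcript passed the test. Differences were tested with limma on log2(TPM + 1), for ids that averaged 1 TPM or more in the 6 samples, and called at a Benjamini-Hochberg adjusted p under 0.1 over all ids. Of the 30 members 7 reached that level and 0 were called, against 2 of 6217 ids (0.0322%) in either direction, 0.0161% higher and 0.0161% lower. Without adjustment 0 of 7 members and 469 of 6217 ids (7.54%) had a p under 0.05 in limma. The 2 groups overlapped for each of the 7, whereas 5.71% of all ids were higher and 7.37% lower in every euc1∆ sample.

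The estimates for single members had wide errors. The log2 fold change was 0.30 ± 0.46 for OLI1 (limma SE, adjusted p = 0.930), -0.23 ± 0.25 for COX1 (adjusted p = 0.892) and 0.08 ± 0.52 for the 15S rRNA (adjusted p = 0.995). For the 21S rRNA it was 0.01 ± 0.47 (limma, adjusted p = 0.999). The fold changes are on the scale of log2(TPM + 1), which understates a change of low ids, and all 7 were low here. Their median was -0.005, against 0.005 for all ids, and 3 of the 7 were above 0, against 51.7% of all ids.

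The WT samples 2 and 3 set much of that spread. The 15S rRNA was listed at 4.22, 5.36 and 5.04 TPM in euc1∆ cells, against 3.76, 12.8 and 1.58 TPM in WT cells, and the 21S rRNA at 6.12, 6.89 and 6.09 TPM in euc1∆ cells, against 4.80, 16.1 and 2.94 TPM in WT cells. In both, WT sample 2 was the highest and WT sample 3 the lowest of the 6. The nuclear 5S rRNA is another RNA without a poly(A) tail. Its 3 ids summed to 155, 131 and 90.7 TPM in euc1∆ cells, against 129, 306 and 118 TPM in WT cells. WT sample 2 was thus the highest there too. The 80 ids of small nuclear and nucleolar RNAs did not follow. They summed to 1954, 2465 and 1801 TPM in euc1∆ cells, against 2507, 2430 and 1879 TPM in WT cells. The relation of these RNAs to the mitochondrial rRNAs was not tested. Without WT sample 2 the median log2 fold change of the 7 members was 0.43 and the log2 ratio of the members' mean sums was 0.29, against -0.24 with all samples, and still 0 members were called. Without WT sample 3 the values moved the other way, to a median of -0.30 and a log2 ratio of -0.50, and OLI1, listed lowest in that sample, had a log2 fold change of -0.30 in place of 0.30, again with 0 members called.

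In the comparison of pGAL-EUC1 with control cells, which asks what an excess of Euc1 changes, both mitochondrial rRNAs were higher and no other member passed the test. Of the 30 members 16 had a mean of at least 1 TPM and 2 of these were called, both higher, against 1294 of 6332 ids (20.4%) called in either direction, 16.0% higher and 4.42% lower. The share of 2 in 16 was thus no larger than that of all ids. After rescaling by the median of ratios the calls over all ids split into 288 higher and 526 lower, in place of 1014 and 280, and of the members the 21S rRNA alone was called.

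The 21S rRNA (Q0158) was listed at 35.7, 29.5 and 32.7 TPM in pGAL-EUC1 cells, against 24.2, 19.9 and 25.8 TPM in control cells. All pGAL-EUC1 samples were above all control samples. The means were 32.6 ± 3.1 and 23.3 ± 3.1 TPM (SD, n = 3 each). In limma the log2 fold change was 0.47 ± 0.11 (SE, adjusted p = 0.0365). The call was lost without pGAL-EUC1 sample 1 (limma, adjusted p = 0.139) and when all 12 samples shared a fit (limma, adjusted p = 0.575). The adjusted p ran from 0.0220 to 0.575 over all alternatives in limma.

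The 15S rRNA (Q0020) was listed at 17.7, 11.7 and 21.4 TPM in pGAL-EUC1 cells, against 11.3, 8.27 and 11.2 TPM in control cells. The groups did not overlap, but pGAL-EUC1 sample 2 stood just above control samples 1 and 3. The means were 16.9 ± 4.9 and 10.3 ± 1.7 TPM (SD, n = 3 each). In limma the log2 fold change was 0.64 ± 0.21 (SE, adjusted p = 0.0898). This call was lost without any of the 3 control samples or without pGAL-EUC1 samples 1 or 3, with adjusted p between 0.123 and 0.245 in limma, and after rescaling by the median of ratios (limma, adjusted p = 0.154). The adjusted p ran from 0.0311 to 0.517 over all alternatives in limma.

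Values of other RNAs without a poly(A) tail are given beside these, and their relation to the mitochondrial rRNAs was not tested. The 3 ids of nuclear 5S rRNA summed to 137, 177 and 129 TPM in pGAL-EUC1 cells, against 180, 240 and 232 TPM in control cells, all pGAL-EUC1 samples being below all control samples. The 80 ids of small nuclear and nucleolar RNAs summed to 1364 to 1543 TPM in pGAL-EUC1 cells and 1398 to 1520 TPM in control cells, and the groups overlapped.

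**Figure D3:**
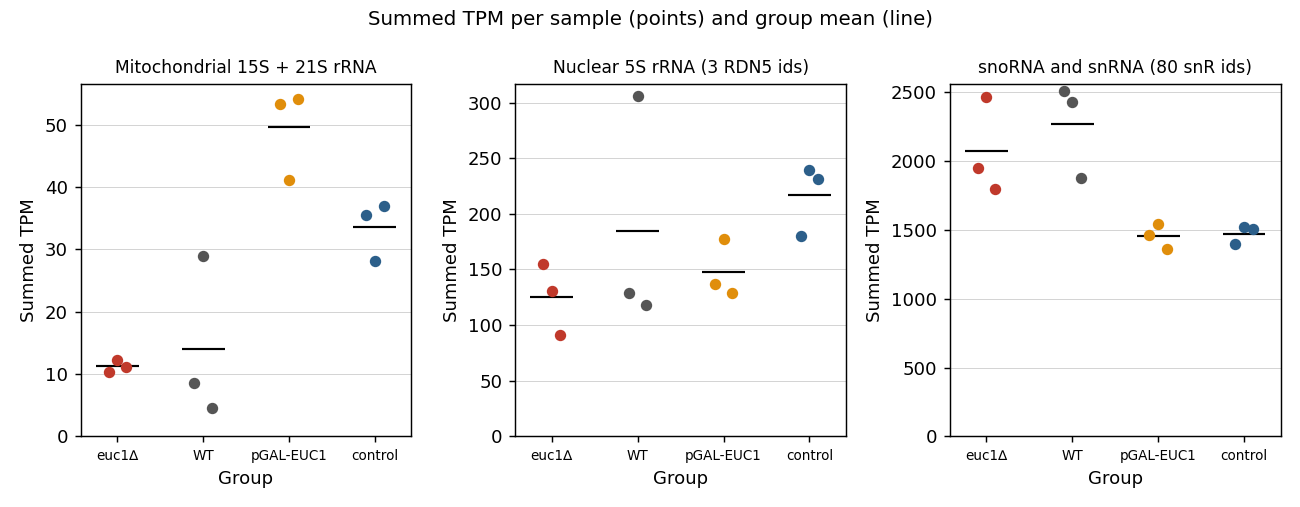
Summed TPM per sample (points) and group mean (lines) of the mitochondrial rRNAs, the nuclear 5S rRNA and the small nuclear and nucleolar RNAs. The mitochondrial rRNAs summed to 41.2 to 54.1 TPM in pGAL-EUC1 cells and 28.2 to 37.0 TPM in control cells, while for the nuclear 5S rRNA all pGAL-EUC1 samples lay below all control samples. WT sample 2 was the highest of the glucose samples in both, but not for the small nuclear and nucleolar RNAs.

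The messages moved less clearly. OLI1 had a mean of 235 ± 62 TPM in pGAL-EUC1 cells and 160 ± 31 TPM in control cells (SD, n = 3 each), and its log2 fold change of 0.54 ± 0.21 did not pass the test (limma, adjusted p = 0.134, 0.0531 to 0.531 over the alternatives). The lowest value came from pGAL-EUC1 sample 3, and without it the log2 fold change was 0.76 (limma, adjusted p = 0.0531). AI5_BETA (Q0075), an intron id of COX1, was listed at 9.46, 10.46 and 8.82 TPM in pGAL-EUC1 cells, against 6.67, 6.78 and 8.73 TPM in control cells, without overlap. Its log2 fold change was 0.34 ± 0.13 (limma, adjusted p = 0.123), and without control sample 3 it was 0.45 (limma, adjusted p = 0.0715, 0.0715 to 0.459 over the alternatives). AI4 was also without overlap, at 5.28, 6.52 and 5.46 TPM in pGAL-EUC1 cells, against 4.42, 4.55 and 5.07 TPM in control cells (log2 fold change 0.25, limma, adjusted p = 0.272).

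Counted over the members, the groups did not overlap for 4 of 16 (25.0%), all higher in pGAL-EUC1 cells, against 29.7% of all ids higher and 7.3% lower. An unadjusted p under 0.05 in limma was likewise reached by 4 of 16 members (25.0%) and by 30.9% of all ids. The log2 fold change was above 0 for 14 of 16 members, against 72.8% of all ids, with a median of 0.21, against 0.08 for all ids. It was above 0 for 12 of 16 after rescaling by the median of ratios, with a median of 0.147, against 0.007 for all ids. The share of 72.8% is that before this rescaling. ATP6 had the lowest estimate, -0.25 ± 0.22 (limma, adjusted p = 0.460), with control sample 3 far above the other 5 samples.

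**Figure D4:**
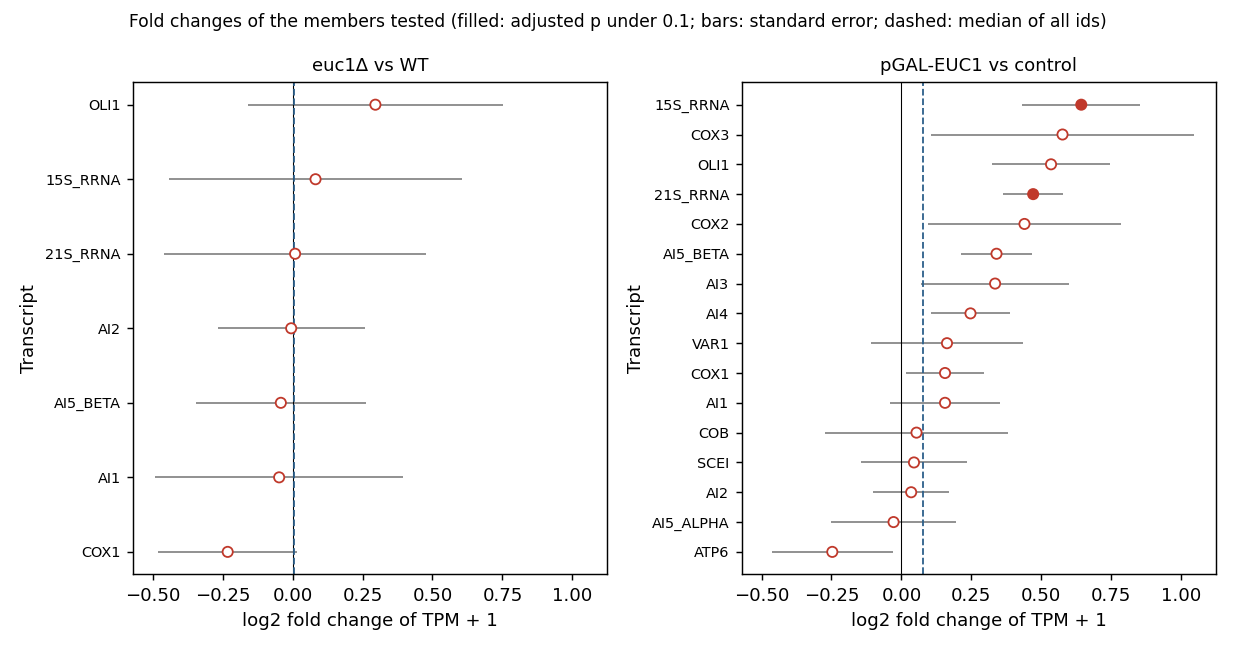
Log2 fold change of TPM + 1 with the limma standard error for the members tested, euc1∆ against WT (left, 7 members) and pGAL-EUC1 against control (right, 16 members). Filled points had an adjusted p under 0.1, which held for the 15S and 21S rRNAs on the right alone, and the dashed line is the median of all ids, 0.005 on the left and 0.079 on the right.

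Most nuclear genes that serve the mitochondrial genome, or the complexes built with its proteins, did not pass the test either. Of 80 genes in 7 lists of such functions, 0 were called in euc1∆ cells by limma. An unadjusted p under 0.05 was reached by 11 (13.8%, against 7.54% of all ids), 2 of them higher and 9 lower. With pGAL-EUC1, 7 were called higher and 3 lower (12.5%, against 20.4% of all ids), and after rescaling by the median of ratios 2 were higher and 9 lower. RPO41, the mitochondrial RNA polymerase, had log2 fold changes of 0.10 in euc1∆ and -0.07 in pGAL-EUC1 cells (limma, adjusted p = 0.916 and 0.337). After the same rescaling it was called lower with pGAL-EUC1, at -0.14 (limma, adjusted p = 0.0906, up to 0.734 over the alternatives). Its factor MTF1 had log2 fold changes of 0.05 and -0.08 (limma, adjusted p = 0.959 and 0.528).

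The genes called with pGAL-EUC1 changed by little. For the mitochondrial DNA itself, 2 of 7 genes were higher, the helicase gene HMI1 (0.29, limma adjusted p = 0.0498) and ABF2 (0.15, limma adjusted p = 0.0649), whose product packages the DNA. For transcription and turnover of the RNA, 0 of 9 were called. For splicing of the introns, 2 of 11 were higher, MSS18 (0.35, limma adjusted p = 0.0584) and PET54 (0.19, limma adjusted p = 0.0676), both known for the splicing of the COX1 intron of AI5_BETA, and COX24, listed as QRI5, was lower (-0.26, limma adjusted p = 0.0370). For translation and stability of the messages, 3 of 22 were higher and 1 lower. These were SMT1 (0.35, limma adjusted p = 0.0250) and NCA3 (0.34, limma adjusted p = 0.0209), both known for the ATP6 and ATP8 message, PET54 again, and CBP6 (-0.27, limma adjusted p = 0.0235), which acts on the COB message.

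Nuclear partners of the mitochondrial proteins in the inner membrane made up the 9 genes that were lower in euc1∆ cells at an unadjusted p under 0.05. In the fit of all 12 samples, which called 71 of 6217 ids lower and 30 higher, 4 of these were called lower. These 4 are named after their values were seen. They were COX7 and COX13 of complex IV, QCR10 of complex III and ATP14 of ATP synthase, with log2 fold changes of -0.56, -0.24, -0.46 and -0.41 and adjusted p of 0.0251, 0.0801, 0.0267 and 0.0734 in limma. Fitted within the glucose experiment, they had adjusted p of 0.160, 0.499, 0.283 and 0.442 in limma. Below 0 were 7 of 10 genes of complex IV (median -0.20), 11 of 15 of ATP synthase (median -0.07) and 3 of 9 of complex III (median 0.02). Over all ids the median was 0.005, and 51.7% were above 0.

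With pGAL-EUC1, few of these partners were called. Of 9 nuclear genes of complex III 0 were called, of 10 genes of complex IV COX26 was lower (-0.37, limma adjusted p = 0.0393), and of 15 genes of ATP synthase ATP16, its delta subunit, was higher (0.14, limma adjusted p = 0.0806). After rescaling by the median of ratios, SMT1 and NCA3 were still called higher, and HMI1, ABF2, MSS18, PET54 and ATP16 were not called.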

How the data were processed

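The submitters aligned single-end reads of 75 bases with STAR 2.6.0a to transcripts of ENSEMBL R64-1-1, annotation version 94, and deposited the TPM values that the authors calculated with RSEM 1.3.0. RSEM divides reads that fit several ids by estimation. Whether strand was used is not given in the sources used here. The study tested counts with DESeq2, which were not analysed here. In the table, the 12 sample names stand 1 cell left of their values, and they were realigned by this structure.

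Each experiment was fitted separately with limma 3.58.1 (R 4.3.3, lmFit and eBayes with trend) on log2(TPM + 1), for ids that averaged 1 TPM or more in its 6 samples, with genotype as the single factor. P-values are two-sided and Benjamini-Hochberg adjusted over all ids tested, and the threshold of 0.1 is that of the study. An exact permutation of 3 samples against 3 cannot go below p = 0.1 and was not used. The fit was checked on simulated data with changes placed only in ids well above the filter, so the check does not cover members near 1 TPM. Sequences and positions are from RefSeq R64, the build of the annotation. They were not taken from the DF5 and W303 strains sampled, whose mitochondrial genomes may differ. The table itself has no coordinates. Motifs were searched with Python 3.11.15.

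Named are all ids that start with Q0, EUC1, RPO41 and MTF1, and at most 3 genes per list and comparison with an adjusted p under 0.1 and the largest fold changes, beside 4 genes named after their values were seen. PET54, named under the splicing list, is repeated under the translation list beyond the 3 named for that list. The set of ids, defined by the Q0 prefix, and the lists were taken up with earlier results of these data known. Tried as alternatives were pseudocounts of 0.1 and 5, no filter or a higher one at 10 TPM, rescaling by the median of ratios or to a common total of nuclear open reading frames, a fit of all 12 samples, no trend, the replicate number as a block, other thresholds, and fits without each sample in turn.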

Additional observations from a re-analysis of the deposited data

How the results depend on the processing

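The fits without 1 sample in turn gave 0 members called higher or lower and 0 calls among the 80 listed genes for euc1∆ against WT, with a median log2 fold change of the members of -0.30 to 0.43 and a log2 ratio of the summed members of -0.50 to 0.29. For pGAL-EUC1 against control they gave 0 to 2 members called higher, 0 lower, 2 to 16 calls among the listed genes, a median of 0.17 to 0.30 and a log2 ratio of 0.30 to 0.56. Of the members called higher there, 1 was left with no filter, after rescaling by the median of ratios, without trend, at an adjusted p under 0.05 and at an unadjusted p under 0.01, and 0 were left in the fit of all 12 samples. With no filter the median over all 30 members was 0.05. Of the 10 calls among the listed genes 6 were left at an adjusted p under 0.05 and 0 in the fit of all 12 samples, which gave 4 in euc1∆ cells, all lower, as did an unadjusted p under 0.01. The filter at 10 TPM left no member for euc1∆ against WT. The cause of these changes was not tested.

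Over all ids, the 1294 calls with pGAL-EUC1 became 814 after rescaling by the median of ratios, 163 in the fit of all 12 samples, 210 without pGAL-EUC1 sample 1, 570 without pGAL-EUC1 sample 3 and 576 without control sample 2. The 2 calls of euc1∆ against WT became 0 to 101, the most in the fit of all 12 samples, where 71 were lower. With pGAL-EUC1, 9 of 16 members, both rRNAs and OLI1 included, kept the sign of the fold change in every other fit that held them. There were 15 such fits at most, since the filter at 10 TPM held only 7 of the members. In euc1∆ cells 1 of 7 kept it in all 14 other fits, COX1.

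Samples with the same replicate number did not deviate together (correlations of -0.107 to 0.189), so the numbers were not taken to pair them. With the replicate number as a block, 0 members were called in euc1∆ cells and 2 with pGAL-EUC1, the 21S rRNA (limma, adjusted p = 0.0220) and the 15S rRNA (limma, adjusted p = 0.0311), and 12 of the listed genes were called in place of 10. TPM carries no depth, so the counting error of members near 1 TPM is unknown, and a call missed at these levels does not show that a transcript did not change. The samples of each group share a strain, and clones were not compared.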
